A study of Papaver somniferum with 9 samples.

Results

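Root was compared with stem in opium poppy (Papaver somniferum) at the filling stage, using the 3 root and 3 stem samples among the 9 samples of the series. The members were chosen by their tissue labels, and root 1, 2 and 3 were set against stem 1, 2 and 3 as pairs by their replicate number. All 6 samples came from the cultivar B1, grown in an experimental plot, and no treatment is described for them. For root, an underground part was taken, and for stem, a short piece from the middle position. The study's methods describe 3 independent samples for each sampling point, and do not say whether a sample is 1 plant or whether a number marks a plant shared by root and stem. The level of a unigene is given as RPKM, its reads relative to unigene length and to all mapped reads, with the PacBio full-length transcriptome of the study as the reference. A unigene stands for 1 locus of that transcriptome, and its ID is PB followed by a locus number and a further number.

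Opium poppy is grown for its benzylisoquinoline alkaloids (BIAs), which include morphine, codeine, noscapine, papaverine and sanguinarine. Much of BIA metabolism in this plant is tied to the phloem, in which alkaloid enzymes are made in sieve elements and companion cells and the alkaloids are stored in the latex of neighbouring laticifers. The organs differ in their alkaloids, with latex rich in morphinans in the stem and sanguinarine as a typical alkaloid of the root. None of the 61856 unigene IDs was found in the RefSeq gene table at hand (0 matched), and the functional annotation that the study states it deposited was not used here. Each unigene is therefore described by its ID and level, no marker of root, stem or BIA biosynthesis was looked up, and the tissue labels were not checked against marker genes. No sequence is shown for the same reason.

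Of the 61856 unigenes, 47219 (76.3%) exceeded 0.1 RPKM in 3 or more root and stem samples and were tested. Sums of RPKM per sample lay between 898884 and 1092543. Stem 3 had the lowest median, 0.68 RPKM, against 1.0 to 1.27 RPKM in the other 5 samples, and the fewest unigenes above 0.1 RPKM, 44167 against 45331 to 46119. The study states the bases sequenced per sample, which were not used here. How many reads stand behind a single level is not known from RPKM alone, and a level of 0 is given only as listed.

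The difference between root and stem was tested with limma on log2(RPKM + 1), with the replicate number as a block, and a unigene was called at a fold change of at least 2 and an adjusted p-value under 0.05 (Benjamini-Hochberg over all 47219). In this comparison 597 unigenes (1.26% of those tested) were called. Of these, 170 (0.360%) rose and 427 (0.904%) fell in root relative to stem. The median log2 fold change was 2.21 among those that rose, with a range of 1.02 to 8.01, and -2.30 among those that fell, with a range of -8.85 to -1.10. A log2 fold change of 3 or more in size was fitted for 49 of the 170 and for 123 of the 427. The median of the mean RPKM over 6 samples was 10.9 for those that rose and 16.5 for those that fell. Most called unigenes exceeded 1 RPKM in at least 1 sample of each tissue. Only 59 of the 170 were at or under 1 RPKM in all 3 stem samples, and 84 of the 427 were at or under 1 RPKM in all 3 root samples. Bulk tissue was measured, so fewer cells of a type and less RNA per cell cannot be told apart. The fit had 2 residual degrees of freedom, and 1 with a replicate number left out. Leaving out replicate 1 gave 336 calls (245 among the 597) and leaving out replicate 2 gave 28 (27 among the 597). With replicate 3 left out, 1567 were called (576 among the 597). The study's RNA quality values put stem 2, alone among the root and stem samples, under the limit it states for a purity ratio. RNA integrity met the stated limit in all of these samples. Why these counts differ was not tested. Without the replicate block, 130 unigenes were called, 31 higher and 99 lower in root, and all 130 were among the 597.

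**Figure D1:**
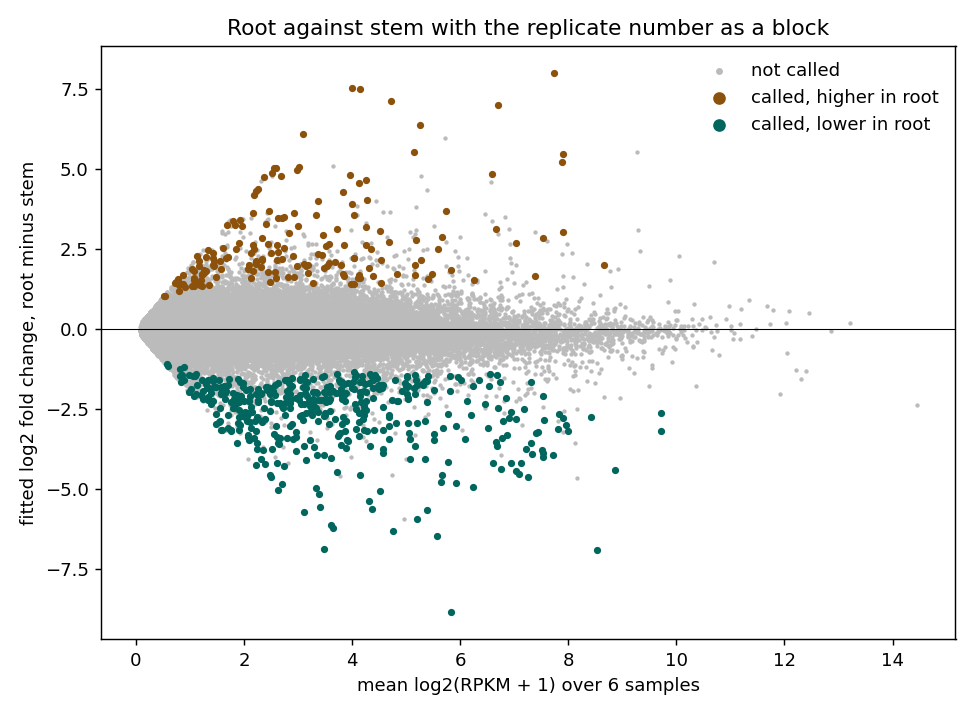
Fitted log2 fold change of root minus stem (y axis) against the mean log2(RPKM + 1) over the 6 samples (x axis) for the 47219 unigenes tested. Coloured points are the 170 unigenes called higher and the 427 called lower in root, and grey points are not called. The added 1 RPKM limits the fold change that a low unigene can reach, which gives the cloud its wedge shape at the left.

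Calls were more frequent at higher levels, where the added 1 RPKM limits the fold change less. How far this limit shaped the trend was not tested. Up to a mean of 1 RPKM, 11 of 14212 unigenes (0.0774%) were called, 7 higher and 4 lower in root. Between 1 and 5 RPKM 0.760% were called, between 5 and 20 RPKM 2.11%, and between 20 and 100 RPKM 3.16%. Above 100 RPKM 5.07% of 1537 unigenes were called, 17 higher and 61 lower in root. The unigenes that fell thus outnumbered those that rose in each range above 1 RPKM. The unigene with the highest value in 4 of the 6 samples, PB.225.272, chosen after its values were seen, was not among the calls. It had 18130, 2518 and 20522 RPKM in root 1, 2 and 3, against 78590, 39640 and 42224 RPKM in stem 1, 2 and 3, with an adjusted p of 0.177 in limma.

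Among the 5 largest rises in root, 3 unigenes were under 4 RPKM in every stem sample, and the others reached 25.9 and 29.9 RPKM in a stem sample. PB.44915.12 had 10089, 3288 and 1182 RPKM in root 1, 2 and 3, against 4.97, 25.9 and 13.4 RPKM in stem 1, 2 and 3. Its lowest root sample was above every stem sample, while the root samples differed widely among themselves. The log2 fold change was 8.01 (standard error 0.86, adjusted p = 0.0294). PB.61683.2 had 372, 50.1 and 540.4 RPKM in root, and was listed at 0.62, 0 and 0 RPKM in stem (log2 fold change 7.53, standard error 0.63, adjusted p = 0.0181). PB.61032.1 had 128, 988 and 108 RPKM in root, against 0.26, 0.55 and 0.17 RPKM in stem (log2 fold change 7.51, standard error 0.58, adjusted p = 0.0154). In both of these unigenes a single root sample stood apart, root 2 below the others for PB.61683.2 and above them for PB.61032.1. The order of the rises depended on the pseudocount. With 0.1 RPKM in place of 1, the log2 fold changes were 10.13 for PB.61683.2, 9.23 for PB.61032.1 and 8.13 for PB.44915.12. PB.57466.1 was steadier in root, with 320.2, 375 and 243 RPKM, against 0.75, 0.36 and 3.65 RPKM in stem (log2 fold change 7.11, standard error 0.47, adjusted p = 0.0122). PB.60163.1 had 1602, 1744 and 578 RPKM in root, against 29.9, 3.88 and 4.02 RPKM in stem, with stem 1 above the other stem samples (log2 fold change 7.01, standard error 0.53, adjusted p = 0.0153).

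The 5 largest falls in root were from high stem levels. PB.60669.1 was the largest of all with the pseudocount of 1. It had 0.86, 2.18 and 2.12 RPKM in root 1, 2 and 3, against 1389, 1326 and 976 RPKM in stem 1, 2 and 3. Its samples were close within each tissue, and its log2 fold change of -8.85 had a standard error of 0.29 (adjusted p = 0.00997). PB.46813.49 had 50.6, 22.4 and 31.0 RPKM in root, against 5639, 4860 and 2452 RPKM in stem (log2 fold change -6.91, standard error 0.34, adjusted p = 0.0107). It was also the unigene with the highest mean among all that fell. PB.60473.1 was listed at 0, 0 and 0.1 RPKM in root, against 150.3, 82.9 and 137 RPKM in stem (log2 fold change -6.87, standard error 0.24, adjusted p = 0.00997). With a pseudocount of 0.1 RPKM its log2 fold change was -9.89, beyond the -9.49 of PB.60669.1. PB.59441.1 had 1.95, 3.26 and 9.47 RPKM in root, against 497, 690 and 260.2 RPKM in stem (log2 fold change -6.46, standard error 0.58, adjusted p = 0.0207). PB.57483.41 was nearly constant in root, with 1.99, 1.96 and 2.21 RPKM, and had 334, 445 and 92.1 RPKM in stem (log2 fold change -6.30, standard error 0.48, adjusted p = 0.0154). In 4 of these 5 unigenes stem 3 was the lowest of the stem samples, PB.60473.1 being the exception.

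The called unigenes with the highest mean levels were above 0 RPKM in all 6 samples. PB.58859.1 had 2992, 1239 and 1108 RPKM in root, against 84.6, 11.3 and 43.3 RPKM in stem (log2 fold change 5.48, standard error 0.42, adjusted p = 0.0154). PB.61591.2 had 2870, 2415 and 442 RPKM in root, against 285, 14.2 and 12.5 RPKM in stem. Its root 3 and stem 1 samples came close to each other, and its call was among the weakest (log2 fold change 5.23, standard error 0.73, adjusted p = 0.0486). PB.6029.26 had 279, 554 and 141 RPKM in root, against 2459, 3461 and 1905 RPKM in stem (log2 fold change -3.18, standard error 0.31, adjusted p = 0.0244). PB.974.98 had 488, 343 and 227 RPKM in root, against 2832, 2392 and 1334 RPKM in stem, and each tissue was lowest in its sample 3 (log2 fold change -2.63, standard error 0.25, adjusted p = 0.0234). These last 4 unigenes were not called without the replicate block, where their adjusted p-values were 0.0504, 0.220, 0.0781 and 0.0701 in limma.

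**Figure D2:**
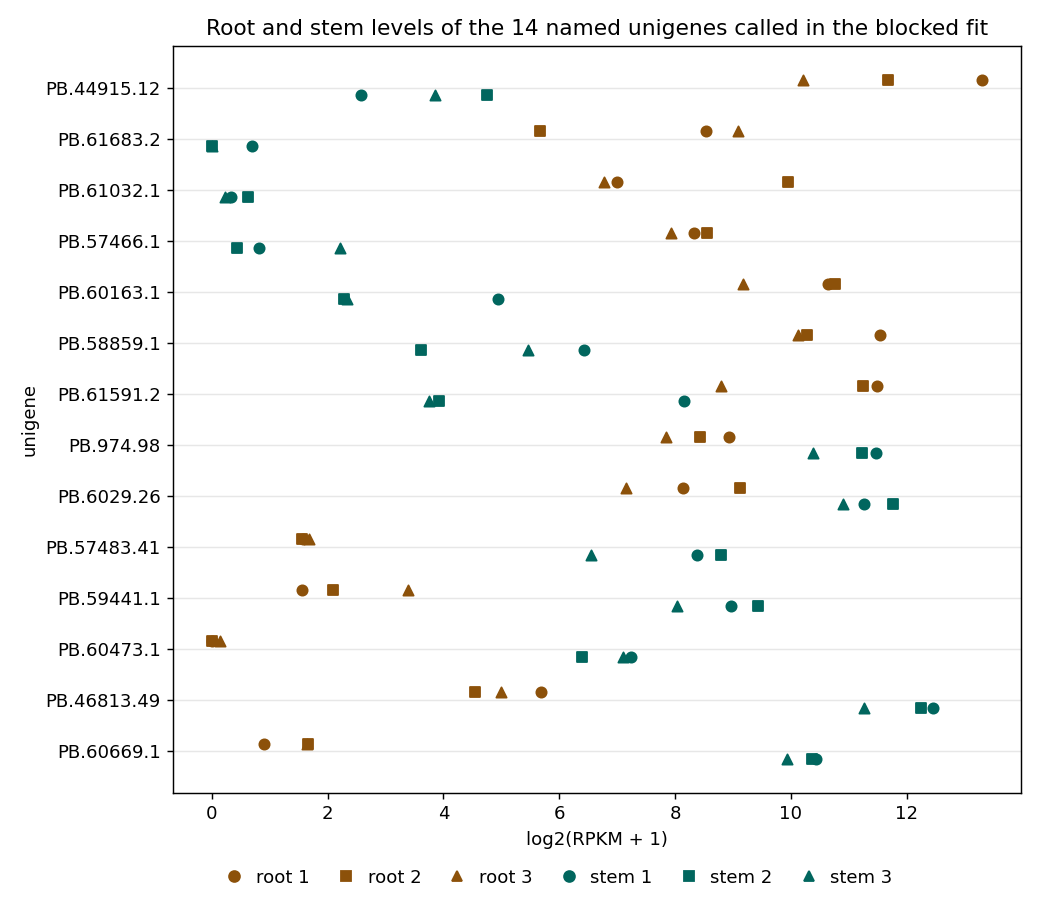
Levels of 14 named unigenes called between root and stem, as log2(RPKM + 1) on the x axis, with 1 point for each sample (root above stem in each line, the symbol giving the replicate number). The order is from the largest fitted rise (PB.44915.12) to the largest fitted fall (PB.60669.1), and no root sample overlaps a stem sample within a unigene. Points that coincide, such as root 1 and root 2 of PB.60473.1 at 0, lie on top of each other.

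Few unigenes were near 0 in 1 tissue and well expressed in the other. Above 0.1 RPKM in all 3 root samples and at or under 0.1 RPKM in all 3 stem samples were 300 unigenes, of which 9 were called. The reverse held for 214 unigenes, of which 10 were called. With more than 10 RPKM required in the higher tissue, these counts were 2 unigenes for root and 1 for stem, all of which were called. For comparison, calls over the whole tested set of 47219 came to 0.360% for rises in root and 0.904% for falls. These limits were set on the same values that the test used. More than 10 RPKM against at most 0.1 RPKM also forces a difference beyond 2-fold in every pair. The counts of calls under these limits are therefore only descriptions. Among the unigenes listed at exactly 0 in all 3 stem samples, PB.61778.1 had the highest mean in root, with 22.4, 135 and 3.82 RPKM in root 1, 2 and 3. With such a spread it did not pass the test (adjusted p = 0.0857). PB.60632.1 had 34.7, 24.0 and 21.1 RPKM in root and was listed at 0 in all 3 stem samples, and it was called (adjusted p = 0.0107). In the other direction, PB.61635.1 was listed at 0 in all 3 root samples and had 17.8, 3.02 and 8.49 RPKM in stem (adjusted p = 0.0480). PB.30103.1 was likewise at 0 in root, with 8.23, 9.75 and 3.79 RPKM in stem (adjusted p = 0.0244). No fold is given for these unigenes, since the values hold no counts behind a listed 0.

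The direction of root against stem was then read in each pair. In 21021 of the 47219 unigenes (44.5%) root and stem differed in the same direction in all 3 pairs. Root was the higher tissue in 13860 (29.4%) and the lower in 7161 (15.2%). The median log2 difference of root minus stem over all tested unigenes was 0.03 in pair 1, 0.09 in pair 2 and 0.17 in pair 3, so most of the small differences pointed to root. The split depended on the scale of the samples. Under median-ratio scaling, 10840 unigenes were higher and 9814 lower in root in all pairs, and with quantile normalization 11024 were higher and 8942 lower. A difference of at least 2-fold in every pair was found for 406 unigenes higher (0.860%) and 745 lower (1.58%) in root, and these counts were 316 and 940 with the median-ratio scaling and 363 and 839 with quantile normalization. This balance depended on the pseudocount and turned with a smaller one, to 1447 higher and 1386 lower with 0.1 RPKM and to 1899 higher and 1589 lower with 0.01 RPKM. In single pairs, at least 2-fold higher and lower in root were 2264 and 2634 unigenes in pair 1, 3095 and 2756 in pair 2, and 4211 and 2638 in pair 3. The balance among highly expressed unigenes also depended on the scale. Above a mean of 100 RPKM, 204 unigenes were higher and 435 lower in root in all pairs on the values as deposited. Median-ratio scaling gave 124 higher and 580 lower, the same balance and more uneven, whereas quantile normalization gave 369 higher and 272 lower.

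A shared direction in the pairs is a weaker criterion than separation of the tissues. Of the 13860 unigenes that were higher in root in every pair, 4507 (32.5%) had all root samples above all stem samples, and in the other 9353 the tissues overlapped. Of the 7161 that were lower in root in every pair, 3029 (42.3%) had no overlap. Among all 47219 tested unigenes, the 4507 and 3029 above were all those with no overlap, since that requires 1 direction in every pair. With so few samples, some unigenes would meet either criterion without any difference between the tissues, and how many was not tested. All 597 called unigenes had the same direction in the 3 pairs. Of these, 158 of the 170 that rose and 420 of the 427 that fell had no overlap. The test favours such unigenes, so these counts only describe the calls. The other 19 called unigenes differed between root and stem within pairs although the tissues overlapped. The one with the highest mean among these, PB.57871.2, chosen after its values were seen, had 1.5, 11.9 and 172 RPKM in root 1, 2 and 3, against 13.8, 36.2 and 707 RPKM in stem 1, 2 and 3. Root minus stem was -2.57, -1.52 and -2.03 on the log2 scale in pairs 1, 2 and 3, while the replicate numbers spread over a wider range than the tissues (log2 fold change -2.04, standard error 0.26, adjusted p = 0.0389).

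The pairs share no sample, so the differences between root and stem can be set side by side. Across the 47219 unigenes, which are not independent of each other, the differences in pairs 1 and 2 had a Pearson correlation of 0.627, those in pairs 2 and 3 of 0.475, and those in pairs 1 and 3 of 0.281. At least 2-fold higher in root in both pairs were 1103 unigenes for pairs 1 and 2, 976 for pairs 2 and 3 and 561 for pairs 1 and 3. The counts of unigenes at least 2-fold lower in root in both pairs were 1416, 1099 and 885 in the same order. Opposite directions, each of at least 2-fold, were found for 134 unigenes in pairs 1 and 2, 243 in pairs 2 and 3 and 466 in pairs 1 and 3. Pair 3 therefore deviated most from pair 1. In all, 650 unigenes (1.38%) had a 2-fold difference in 1 direction in some pair and in the other direction in another. The most opposed of these, PB.59990.1, chosen after its values were seen, had 152, 7.10 and 0.29 RPKM in root 1, 2 and 3, against 2.85, 4.54 and 38.2 RPKM in stem 1, 2 and 3. Root was thus higher by 5.31 in pair 1 and lower in pair 3, with a difference of -4.93 on the log2 scale, and the fit gave no call (adjusted p = 0.937).

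**Figure D3:**
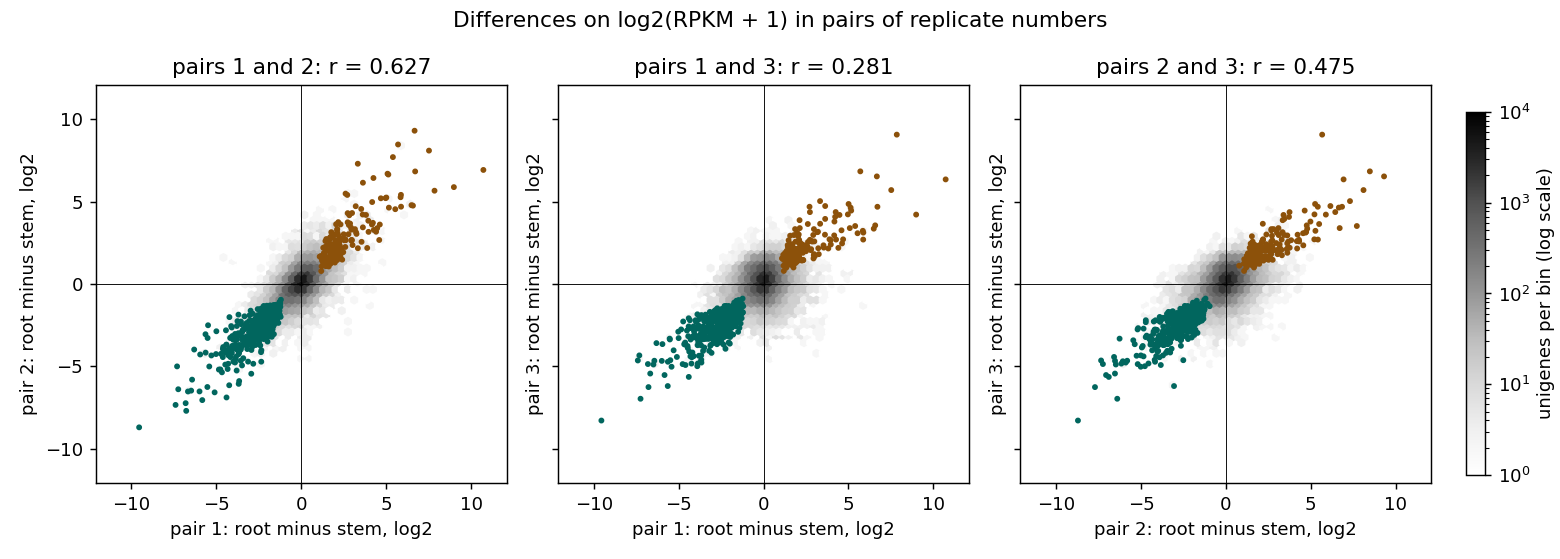
Difference of root minus stem on log2(RPKM + 1) in one pair (x axis) against another pair (y axis), for pairs 1 and 2, 1 and 3, and 2 and 3. Grey shading is the number of tested unigenes per bin on a log scale, and coloured points are the called unigenes, those higher in root at the upper right and those lower in root at the lower left. The cloud of pairs 1 and 3 (r = 0.281) is rounder than that of pairs 1 and 2 (r = 0.627).

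The size of the difference among called unigenes was of a similar order in the 3 pairs. For the 170 that rose, the median log2 difference was 2.11, 2.41 and 2.12 in pairs 1, 2 and 3, and for the 427 that fell it was -2.32, -2.50 and -2.15. Pair 2 had the largest difference of the 3 pairs in 74 of the 170 and 186 of the 427, and pair 3 the smallest in 85 and 192. The calls chose these unigenes by their differences in these same pairs, so the medians only describe them.

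Called unigenes took a small share of each sample. The 170 that rose held 2.88%, 2.38% and 1.12% of the summed RPKM in root 1, 2 and 3, against 0.177%, 0.137% and 0.0970% in stem 1, 2 and 3. The 427 that fell held 0.648%, 0.659% and 0.397% in root 1, 2 and 3, against 5.96%, 5.71% and 2.91% in stem 1, 2 and 3. Both sets held their smallest share of root in root 3 and of stem in stem 3. The set that rose was the more concentrated, since its 5 highest unigenes in root made up 53.7% of the set's mean level there, while the 5 highest of the set that fell made up 25.2% of its mean level in stem. These shares also describe unigenes chosen on the same samples.

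**Figure D4:**
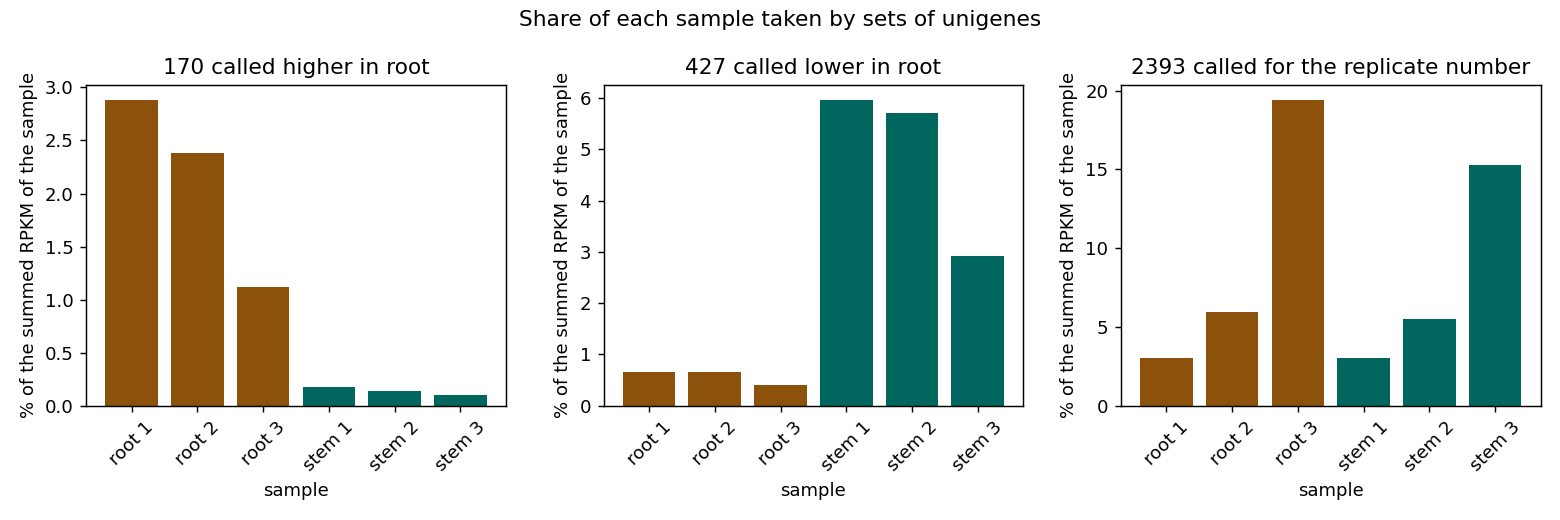
Percent of the summed RPKM of each sample (y axis, from 0) held by the 170 unigenes called higher in root, the 427 called lower in root and the 2393 called for the replicate number, with 1 bar for each root and stem sample and a separate scale in each panel. The tissue sets separate root from stem, whereas the replicate-number set is highest in root 3 (19.4%) and stem 3 (15.3%).

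The replicate number had its own effect in both tissues, which the block takes out of the comparison of root and stem. In the moderated F test of the block terms, 2393 unigenes (5.07%) differed between the numbers at an adjusted p under 0.05. Of the 597 unigenes called between the tissues, 34 (5.7%) were among them, near the 5.07% of all tested. The count for the replicate number ran from 582 without replicate 3 to 1721 without replicate 2, and was 1683 without replicate 1. In 2237 of the 2393 the same number stood apart on the same side in root and in stem, a description of unigenes that the test had chosen for this. Number 3 was the high one in 1154 and the low one in 412, number 1 the high one in 276 and the low one in 235, and number 2 the high one in 151 and the low one in 9. For the 1154, the median log2 shift of number 3 from the mean of the other numbers was 2.73 in root and 2.75 in stem. For the 412 it was -1.65 in root and -1.80 in stem. Together, the 2393 unigenes held 3.01%, 5.92% and 19.4% of the summed RPKM in root 1, 2 and 3 and 2.99%, 5.53% and 15.3% in stem 1, 2 and 3. Their part in the smaller share of called unigenes in root 3 and stem 3 was not tested.

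The 2 unigenes with the largest F were near 0 or low in numbers 1 and 2 and high in number 3, in root as in stem. PB.58043.1 had 0.28, 0.48 and 289 RPKM in root 1, 2 and 3, and 0.22, 0.15 and 197 RPKM in stem 1, 2 and 3 (F = 566, adjusted p = 0.00551 in limma for the number). Between root and stem it was not called (adjusted p = 0.433). PB.48383.3 had 1.21, 0.86 and 248 RPKM in root, and 1.35, 1.06 and 228 RPKM in stem (F = 545, adjusted p = 0.00551). Both thus varied far more between samples of 1 tissue than between root and stem of a number. Further examples were chosen after their values were seen. PB.57877.1 was high in number 1, with 119.9, 0.24 and 0.06 RPKM in root and 108, 0 and 0.08 RPKM in stem. PB.25806.2 was low in number 1, with 0.11, 113 and 80.4 RPKM in root and 0.08, 84.4 and 62.4 RPKM in stem. PB.21710.2 was high in number 3, with 0, 0.31 and 114 RPKM in root and 0.08, 0.06 and 109 RPKM in stem. The pattern also reached very abundant unigenes. PB.61230.1 had 3.22, 1163 and 1492 RPKM in root, and 4.48, 15975 and 7103 RPKM in stem. It was lower in root than in stem in each pair, without a call (log2 fold change -2.14, standard error 0.64, adjusted p = 0.176). PB.23824.2 had 11.2, 13.4 and 7317 RPKM in root, and 15.9, 128 and 4854 RPKM in stem.

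**Figure D5:**
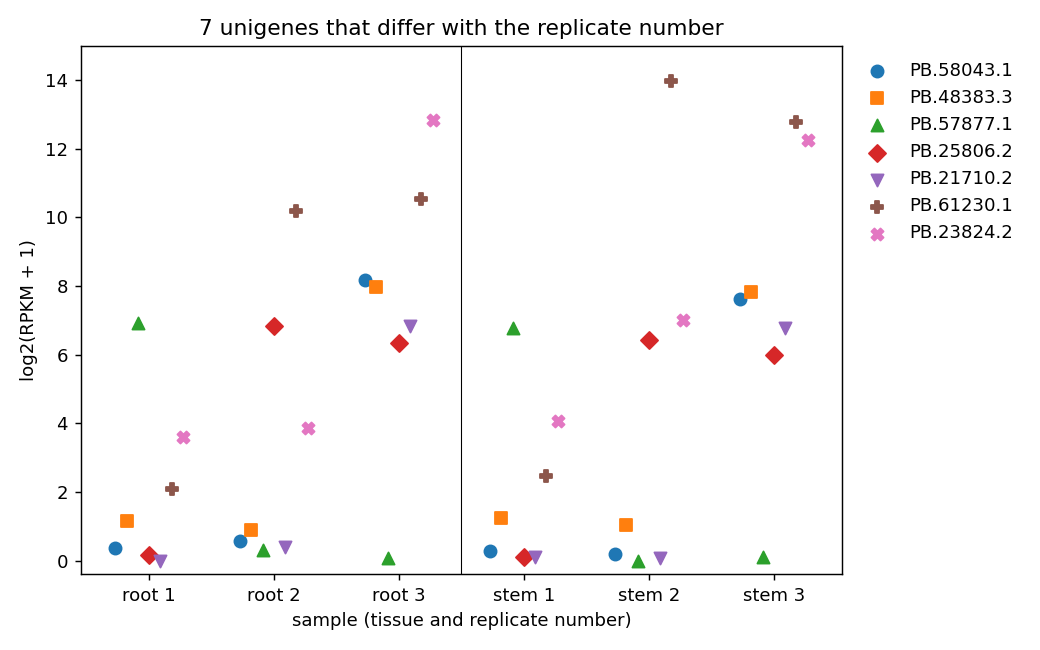
Levels of 7 unigenes that differed with the replicate number, as log2(RPKM + 1) on the y axis, in root 1 to 3 (left) and stem 1 to 3 (right). Each symbol is 1 unigene in 1 sample, and symbols are shifted sideways for legibility. Most unigenes repeat in stem the pattern over the numbers that they have in root, such as PB.58043.1 with 289 RPKM in root 3 and 197 RPKM in stem 3.

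To describe such patterns over all unigenes, a limit was set after the values were seen, with a number counted as on at 5 RPKM or more in both root and stem, and as off at 0.5 RPKM or less in both. By this limit 171 unigenes were on in number 3 alone, 48 in number 1 alone and 1 in number 2 alone. Off in a single number and on in the others were 51 unigenes for number 1, 1 for number 2 and 4 for number 3. What the numbers stand for is not given in the sources used here.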

How the data were processed

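Paired-end Illumina reads of 3 root and 3 stem samples were used. The 3 leaf samples were left out of every fit, and apart from the low-value filter of 1 alternative setting they had no part in the tests. The authors removed low-quality reads, mapped with HISAT2 2.05 (version per the labels) to their PacBio unigenes, estimated levels with RSEM and deposited RPKM values with 2 decimals, which the methods call FPKM. RSEM divides reads between similar unigenes, so levels of near-identical copies are uncertain. Columns were assigned by the sample number in the labels. The authors' DESeq test needs counts, so limma 3.58.1 in R 4.3.3 was run on log2(RPKM + 1), with tissue and replicate number as factors, an intensity trend, 2 residual degrees of freedom and Benjamini-Hochberg adjustment. The pseudocount of 1 understates changes of low unigenes. Summaries used Python 3.11.15, numpy 2.4.6 and pandas 2.3.3. The procedure was tested on simulated data, with changes put only into unigenes with a mean log2(RPKM + 1) above 2. Median fitted changes matched those put in, large changes were mostly called and 2-fold changes almost never. When noise followed each unigene's own estimated spread, fewer were called and many large changes were missed. In the blocked fit, p-values rest on how the difference between root and stem varied over these 3 pairs, with variances moderated across unigenes.

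The named unigenes were taken from calls with 1 direction in all 3 pairs (the 5 largest rises, the 5 largest falls and the 3 highest means in each direction). Called or not between the tissues, the 2 highest means with the other tissue at 0 in each direction and the 2 largest F for the number were added. Others are marked as chosen after their values were seen. The members and rules were chosen with earlier results of these data known.

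Pairing was checked from deviations from the tissue means. Root and stem samples of the same number had correlations of 0.595, 0.568 and 0.658, all above 0.1, and those of different numbers from -0.512 to 0.0526. The deviations of each tissue cancel out over its 3 samples, so positive correlations for the same number tend to make the others negative. The correlations of different numbers therefore give no separate check of the pairing. The pairs were set by the replicate number in the labels, and the check of them comes from the values alone. Alternatives were other pseudocounts, limits on low values, scalings, treatments of the block, no intensity trend, no fold change limit and leaving out each number.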

Additional observations from a re-analysis of the deposited data

How the results depend on the processing

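The 597 calls between root and stem varied most with the setting. There were 161 with no filter on low values and 166 with the filter applied over all 9 samples (a setting chosen after seeing the data), 395 with a pseudocount of 0.01, 130 with no replicate block and 1404 with the replicate block as a random effect. All of the 161, 166 and 130 and 581 of the 1404 were among the 597. The share higher in root was 28.5%, and 16.1% with no filter. Leaving out each replicate number gave from 28 to 1567 calls, and the other settings stayed within 1.5 times. Without the block, 2329 unigenes had a difference of at least 2-fold with an unadjusted p under 0.05, against 3023 with it. The count of 21021 unigenes with 1 direction in all pairs was 8165 with a limit of 5 RPKM, 1151 when 2-fold was required in every pair, and from 26553 to 31638 with each number left out, where 2 pairs had to agree in place of 3. The share of these higher in root was 65.9%, and 52.5% with median-ratio scaling. The count of 2393 unigenes that differ with the replicate number was 1452 with a pseudocount of 0.01, 621 with a limit of 5 RPKM (17242 unigenes tested) and from 582 to 1721 with each number left out. Unless stated, the cause was not tested. The 14 called unigenes named for their fold change or mean level were followed over 13 settings. None changed direction, and of the 182 values 157 kept the call and 25 lost it, 7 of these without replicate 2. Other called unigenes described by their levels were not followed in this way. The values hold no read counts, so no counting limits are given for single low unigenes.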

Other observations

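The 3 leaf samples, which entered no fit, carry the same replicate numbers. Their levels were read for the unigenes that were on or off in a single number in both root and stem. All 48 unigenes on in number 1 alone were higher in leaf 1 than in leaf 2 and leaf 3, and 26 of them met the limits of the same on and off pattern in leaf. Of the 51 unigenes off in number 1 alone, 50 were lower in leaf 1 than in leaf 2 and leaf 3, and 37 met the same limits. Number 3 did not carry over in this way. Of the 171 unigenes on in number 3 alone, 39 were highest in leaf 3, 76 were off in all 3 leaf samples and 17 were on in all 3. PB.57877.1, high in number 1 of root and stem, had 17.0, 0 and 0.13 RPKM in leaf 1, 2 and 3. PB.25806.2, low in number 1, had 0.12, 38.4 and 37.5 RPKM in leaf 1, 2 and 3. PB.61230.1 had 2.83, 173 and 139 RPKM. PB.58043.1, high in number 3 of root and stem, had 26.2, 18.3 and 24.5 RPKM in leaf 1, 2 and 3, and PB.21710.2 had 108, 127 and 60.1 RPKM. These counts are descriptions over unigenes of 3 leaf samples, with limits set after the values were seen, and no test was made.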
